A study of Mus musculus with 16 samples.

Results

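Cystatin C and 9 cathepsins, the 10 genes Cst3, Ctsa, Ctsb, Ctsc, Ctsd, Ctsf, Ctsh, Ctsl, Ctss and Ctsz, were followed in macrophages and microglia sorted from the mouse brain. They were taken by name from the 18576 genes of the files, after the RefSeq transcripts of each table had been summed to gene symbols, and all 10 were measured in every library and passed the filter on low counts. The animals were adult male and female CD163KO mice (CD163tm1.1(KOMP)Vlcg), which lack the hemoglobin-haptoglobin scavenger receptor CD163 in every cell, and their WT C57BL/6N littermates. At 12 weeks of age they received murine α-synuclein (α-syn) into both striata, either as monomer (MONO), the control, or as pre-formed fibrils (PFF), which seed aggregation, and the brains were taken 2 months post-injection. Every animal was thus injected, and an uninjected or PBS group was not analysed here.

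Both populations were gated on CD11b, microglia by low or intermediate CD45 and macrophages by high CD45, and the high-CD45 gate holds resident macrophages of the brain borders, macrophages that came from the blood, and also neutrophils and NK cells. Males and females of either genotype, given either form of α-syn, make up 8 conditions, and a single library of each population was analysed per condition. Each label names 4 to 7 mice, and the methods state that triplicates were sequenced, but the sources do not say whether a table is 1 of them or their pooled reads. The p-values below therefore compare libraries pooled over the other factors, and part of their spread may be technical. The male CD163KO MONO pair, which the study excluded for inconsistent technical replicates, is described here but enters no main fit, which leaves 7 matched pairs.

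Cathepsins are proteases of the endosome and lysosome. Most are cysteine proteases: cathepsins B, F, L and S cut within proteins, cathepsin S and L also trim the invariant chain of MHC class II, while cathepsin C, H and Z (also called X) remove residues from chain ends, and cathepsin C activates the granule serine proteases of neutrophils and NK cells. Cathepsin D is an aspartic protease, known in the brain for degrading α-syn, and cathepsin A is a serine carboxypeptidase that also protects lysosomal glycosidases. Cystatin C, encoded by Cst3, is a small secreted protein that blocks cysteine cathepsins but neither cathepsin D nor cathepsin A, and it is an abundant transcript of resting microglia.

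In the GRCm38.p6 annotation of RefSeq, Cst3 lies on chromosome 2 (148871722 to 148875512), Ctss on chromosome 3 (95526786 to 95556405), and the other members on chromosomes 2 (Ctsa, Ctsz), 7 (Ctsc, Ctsd), 9 (Ctsh), 13 (Ctsl), 14 (Ctsb) and 19 (Ctsf). Promoter sequence from RefSeq on this build matched 8 of the 10 members. The E-box CACGTG, the core of the element bound by the lysosomal regulators TFEB and TFE3, was searched on both strands in the 250 bases before each start. It was found in 4 of these 8 members, against 6.0% of 32851 promoters of the same length. The members had 9 promoters, since Ctsa has 2 and was counted if either held the motif, whereas the share of all promoters was counted per promoter. Its copies are shown because 3 of the 4 genes, Ctsd, Ctsf and Ctsl, were the members higher in microglia in the main fit below. The other gene, Ctsa, was not called there, and a link between the motif and the levels was not tested. In each window of 30 bases, 5′ to 3′ on the strand of the gene, capitals mark the E-box.
Ctsd, chr7:142387908-142387937, minus strand, 98 bases before the start: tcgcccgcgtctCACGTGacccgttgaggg
Ctsd, chr7:142388048-142388077, minus strand, 245 bases before the start: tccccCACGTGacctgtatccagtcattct
Ctsf, chr19:4855074-4855103, plus strand, 79 bases before the start: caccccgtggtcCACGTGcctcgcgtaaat
Ctsl, chr13:64370739-64370768, minus strand, 236 bases before the start: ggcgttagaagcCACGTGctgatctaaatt
Ctsa, chr2:164833743-164833772, plus strand, 12 bases before the start: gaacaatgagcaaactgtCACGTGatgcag

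The PU.1 core GAGGAA, named for a transcription factor of myeloid cells and also searched on both strands, was found in Cst3, Ctss and Ctsc, 3 of the 8 members, against 23.3% of all promoters. The interferon regulatory factor core GAAANNGAA was found in 1 member, Ctss, against 7.1% of all promoters. These genes are shown because Cst3 was the most abundant member in microglia, Ctss the most abundant cathepsin in macrophages, and Ctsc the member lowest in microglia relative to macrophages. In the first 4 windows capitals mark the PU.1 core on either strand, and in the last the interferon regulatory factor core.
Cst3, chr2:148875725-148875754, minus strand, 230 bases before the start: aagggcacagaaGAGGAActggtaagaaca
Ctss, chr3:95526610-95526639, plus strand, 164 bases before the start: gacacagggttgGAGGAAaactttgtcctg
Ctsc, chr7:88277877-88277906, plus strand, 196 bases before the start: ccactttccttcTTCCTCctagtggtgcct
Ctsc, chr7:88277924-88277953, plus strand, 149 bases before the start: tcactaactaacTTCCTCaggccacctcgt
Ctss, chr3:95526755-95526784, plus strand, 21 bases before the start: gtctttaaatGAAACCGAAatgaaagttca

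Of 5 motifs searched, the others were the GC box GGGCGG, in 6 of the 8 members against 32.7% of all promoters, and the TATA box TATAAA, in 1 against 12.4%. A match is a stretch of letters and not a measured binding site. Ctsb and Ctsh had no entry in the promoter table, and the listed start of Ctsc, of Ctsl and of the Ctsa promoter with the E-box lies inside the annotated span of the gene.

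The libraries differed in one respect that matters for reading the values below. Assigned reads summed to 12170686 to 21433841 counts in macrophage libraries and 8648751 to 18768238 in microglia libraries. Of the counts not taken by the 10 members, the 10 most abundant genes took 40.7% to 66.5% in 6 macrophage libraries and 8.90% to 12.3% in 6 microglia libraries. In 2 matched pairs, male WT PFF and male CD163KO MONO, this was turned around, with 16.93% and 16.95% in the macrophage libraries and 49.2% and 36.0% in the microglia libraries. Libraries with 25% or more are called concentrated and the others even, which are technical descriptions and not groups of the study. The sums of 3 marker lists separated the populations as labelled in all 16 libraries: 10 microglia markers summed to 934.5 to 1866 FPKM (fragments scaled to transcript length and library size) in macrophages and 16130 to 42340 in microglia, 10 markers of border-associated macrophages to 1845 to 5103 and 28.9 to 169, and 11 neutrophil markers to 22110 to 134400 and 1050 to 2850. All 10 microglia markers were detected in every library, all 11 neutrophil markers in every macrophage library, and at most 2 of them were at 0 in a microglia library. A list of 6 choroid plexus markers did not follow the populations, with 84.9 to 12620 FPKM in macrophages (median 1451, up to 4 markers at 0) and 263 to 2523 FPKM in microglia (median 678, up to 1 at 0). It was highest in female WT MONO macrophages, above the sum of the border-associated macrophage markers there (2976), and its part in the values of the members was not tested. In microglia the label was not borne out in the female CD163KO MONO library, which held 799 Y-linked counts. Cd163 counts in microglia were 0 and 1 in the male WT libraries but 5 and 10 in the male CD163KO libraries. In female microglia they were 46 and 101 in WT and 23 and 11 in CD163KO. The paper describes CD163 as absent in surveilling adult microglia, so such low counts are a weak check of genotype. In macrophages Cd163 counts were 748 to 5275 in WT and 0 to 1 in CD163KO.

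Cst3 was the most abundant gene of all 8 microglia libraries, and stood between the 10th and the 16th place in macrophage libraries. Its level was 60306, 62251, 61997, 66460, 68323 and 73243 FPKM in the 6 even microglia libraries (female CD163KO, female WT and male WT MONO, then female CD163KO, female WT and male CD163KO PFF), and 237700 and 261160 FPKM in the concentrated male CD163KO MONO and male WT PFF libraries. In macrophages it lay between 6657 and 11289 FPKM (median 8660, n = 8). The populations did not overlap, and Cst3 was higher in microglia in all 8 matched pairs, by 5.49-fold to 9.98-fold in the 6 pairs whose microglia library was even and by 34.7-fold and 37.9-fold in the other pairs.

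As a share of library counts, which PCR copies inflate and whose intervals cover counting error only, Cst3 took 4.62% (95% Wilson interval 4.61 to 4.63) in female CD163KO MONO microglia, 4.68% (4.66 to 4.69) in female WT MONO and 4.66% (4.65 to 4.68) in male WT MONO. After PFF it took 5.05% (5.04 to 5.06) in female CD163KO, 5.12% (5.11 to 5.13) in female WT and 5.54% (5.52 to 5.55) in male CD163KO microglia. The 3 PFF libraries stood above the 3 MONO libraries, with no replicate of any single condition, so that the counting intervals do not measure the spread between libraries. The concentrated microglia libraries gave 18.3% (18.31 to 18.34) for male CD163KO MONO and 19.7% (19.71 to 19.74) for male WT PFF, so that 1 library of each treatment stood far above the other 6.

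In macrophages the Cst3 share was 0.712% in female CD163KO MONO, 0.810% in female WT MONO, 0.850% in male WT MONO and 0.521% in male CD163KO MONO. It was 0.498% in female CD163KO PFF, 0.732% in female WT PFF, 0.594% in male CD163KO PFF and 0.533% in male WT PFF. The whole range in macrophages was thus narrower than the gap between the populations, and neither treatment nor genotype separated the 8 libraries. Over the 7 pairs the share was 7.06% in microglia and 0.676% in macrophages, a mean difference of 6.38 percentage points ± 5.66 (SD of 7 differences), higher in microglia in 7 of 7 pairs (two-sided exact sign-permutation test, p = 0.0156, the smallest that 7 pairs allow). Without the male WT PFF pair the mean difference was 4.25 ± 0.457 percentage points (exact sign-permutation test, p = 0.0312, the smallest that 6 pairs allow). Without that pair and without female CD163KO MONO it was 4.31 percentage points in 5 of 5 pairs, where the exact test cannot go below p = 0.0625.

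**Figure D1:**
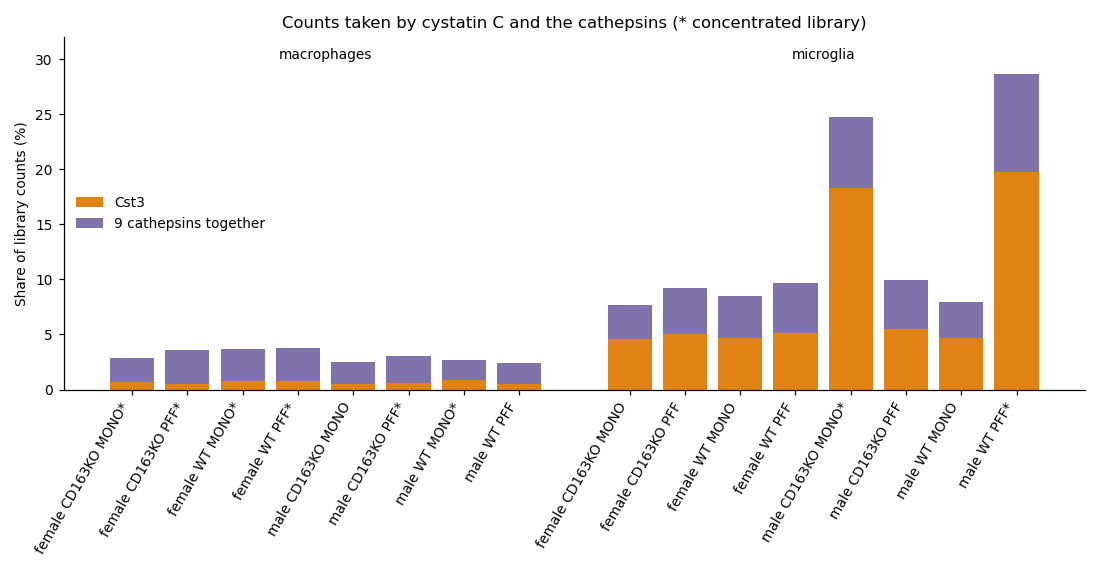
Share of library counts (%, bars from 0) taken by Cst3 (orange) and by the 9 cathepsins together (violet) in each of the 16 libraries, with an asterisk on concentrated libraries. Microglia exceed macrophages in every pair, on a scale where the median gene was higher in microglia as well. Male CD163KO MONO and male WT PFF microglia stand apart with 24.8% and 28.6% for all 10 genes.

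All 10 genes together took 7.69% to 28.6% of the counts of a microglia library (median 9.42%) and 2.45% to 3.75% of those of a macrophage library (median 2.97%). The 9 cathepsins alone took 3.06% to 8.91% in microglia and 1.84% to 3.11% in macrophages, so that the ranges overlapped, the lowest microglia library (female CD163KO MONO) lying below the highest macrophage library (female CD163KO PFF). Within each pair the cathepsins took more of the microglia library. With library totals alone, the scale of these shares, the median gene was also higher in microglia, by 1.94 on the log2 scale over 7 pairs. On that scale 44.5% of all genes were called higher. In FPKM, the level of Cst3 was 2.85 to 5.91 times the summed level of the 9 cathepsins in microglia, and 0.513 to 1.22 times in macrophages. Against the 7 cysteine cathepsins alone, without Ctsd and Ctsa, the level of Cst3 was 4.83 to 8.18 times the sum in microglia and 0.569 to 1.33 times in macrophages. It exceeded that sum in 8 of 8 microglia libraries and in 3 of 8 macrophage libraries.

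In FPKM over all 16 libraries, 5 of the 10 members had every microglia library above every macrophage library, against 4.56% of 12819 genes, and 1, Ctsc, had every microglia library below, against 2.26%. The same 5 members were higher in microglia in all 8 pairs, against 15% of genes, and Ctsc was lower in all 8, against 3.35%.

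Among the cathepsins the order of FPKM was nearly constant within a population. In microglia Ctss or Ctsd came first, then Ctsz, Ctsb, Ctsa or Ctsh, and Ctsl, Ctsf and Ctsc last, with Ctsc lowest in all 8 libraries. Ctss was above Ctsd in 5 microglia libraries and below it in 3, so this pair has no fixed order. In macrophages Ctss led the cathepsins in all 8 libraries and Ctsb came second in all 8, while Ctsl and Ctsf were last in all 8.

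**Figure D2:**
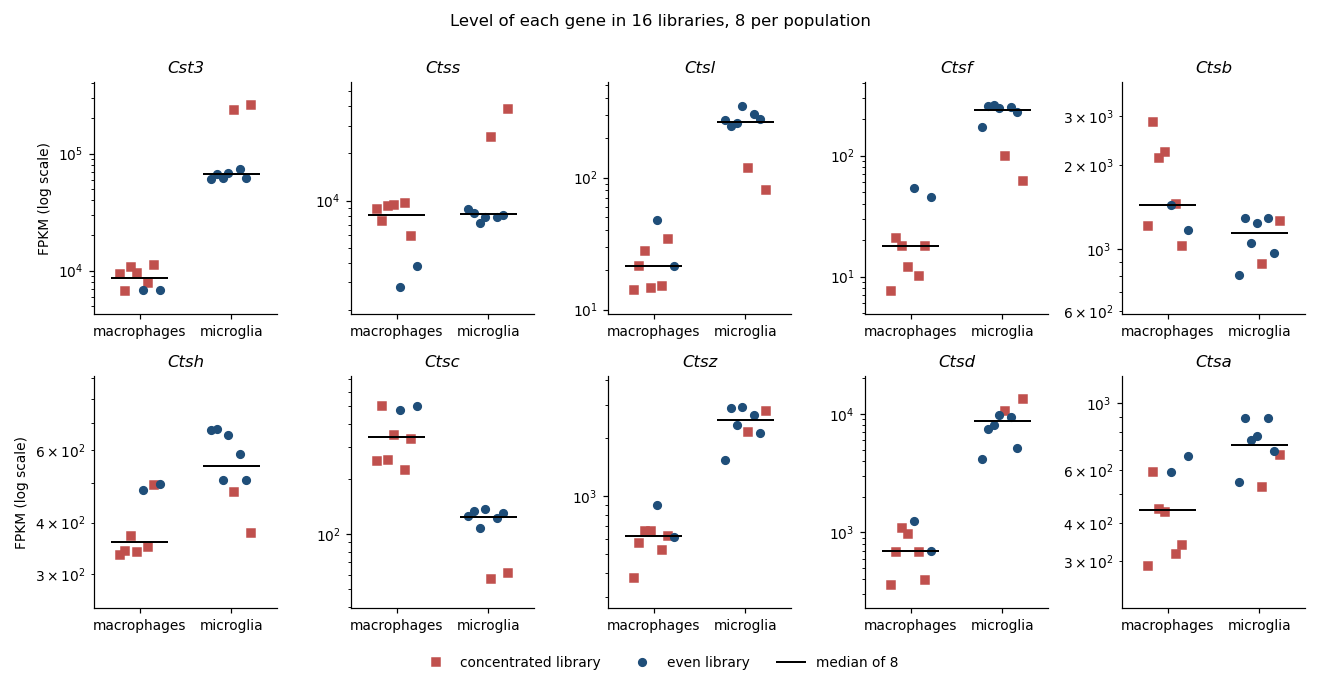
FPKM (log axis, a separate range in each panel) of the 10 genes in 8 macrophage and 8 microglia libraries, squares for concentrated and circles for even libraries, with the median of 8 as a line. Cst3, Ctsd, Ctsf, Ctsl and Ctsz lie higher in microglia and Ctsc lower with no overlap, as 4.56% and 2.26% of all genes tested do, while Ctss overlaps.

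The endopeptidases split. Ctsl, the broad lysosomal endopeptidase, measured 14.1 to 48.0 FPKM in macrophages (median 21.3) and 79.9 to 346 FPKM in microglia (median 265). Ctsf, another lysosomal endopeptidase, measured 7.61 to 54.2 FPKM (median 17.9) and 62.1 to 261 FPKM (median 236). Both are among the 5 members without overlap counted above, Ctsl higher in microglia by 2.45-fold to 23.8-fold and Ctsf by 1.36-fold to 24.8-fold. The smallest folds came from male WT PFF and male CD163KO MONO, where the microglia values were the lowest of their population (79.9 and 118 FPKM for Ctsl, 62.1 and 99.9 for Ctsf).

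Ctss, the cathepsin of antigen-presenting cells, behaved in another way. In macrophages it measured 5977 to 9695 FPKM in the 6 concentrated libraries and 2796 and 3819 FPKM in the 2 even ones. In microglia it measured 7210 to 8891 FPKM in the 6 even libraries and 25273 and 38365 FPKM in the 2 concentrated ones. Pair by pair, microglia held 0.780 to 1.36 times the macrophage level in 6 sets and 9.04 and 10 times in the other sets, so that the populations overlapped. Compared between libraries of like kind, the median of microglia over that of macrophages was 2.42 for even and 3.51 for concentrated libraries, which are 6 libraries against 2 in each case. Ctsb, an abundant cathepsin that can act as an endo- and an exopeptidase, measured 1025 to 2862 FPKM in macrophages and 809 to 1294 FPKM in microglia, overlapped, and was lower in microglia in 7 of 8 pairs.

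The exopeptidases divided as well. Ctsc, the activator of granule serine proteases, measured 225 to 503 FPKM in macrophages (median 339) and 57.1 to 137 FPKM in microglia (median 124). The populations did not overlap, and the microglia level was 0.120 to 0.547 times that of macrophages in the 8 pairs. Ctsz, a carboxypeptidase, went the other way, with 378 to 898 FPKM in macrophages and 1541 to 2923 FPKM in microglia and 2.40-fold to 5.07-fold higher in microglia, on a scale where the median gene was higher in microglia as well, as given below. Ctsh, an aminopeptidase, measured 333 to 496 and 378 to 675 FPKM, overlapped, and was higher in microglia in 6 of 8 pairs.

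Ctsd, the aspartic protease, measured 357 to 1234 FPKM in macrophages (median 689) and 4124 to 13340 FPKM in microglia (median 8774). It was 7.42-fold to 19.2-fold higher in microglia in the 8 pairs and ranked between the 4th and the 10th place of all genes in microglia, against the 52nd to the 213th in macrophages. Ctsa, the serine carboxypeptidase, measured 288 to 665 and 525.8 to 892 FPKM, overlapped, and was higher in microglia in 7 of 8 pairs.

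The formal comparison of the populations used edgeR's quasi-likelihood test on the rounded summed counts, with the matched set as a factor, TMM scaling (which assumes that most genes do not change) and Benjamini-Hochberg adjustment over 12819 genes, with an adjusted p of at most 0.05 as the call. Of the 10 members, 3 were higher in microglia (7.4% of all genes tested were) and 2 were lower (12.6% were). Ctsf was higher by 2.20 ± 0.195 on the log2 scale (SE, adjusted p = 1.98e-05), Ctsl by 2.15 ± 0.256 (adjusted p = 0.000155) and Ctsd by 2.00 ± 0.620 (adjusted p = 0.0428). Ctsc was lower, with a log2 difference of -2.92 ± 0.381 (adjusted p = 0.000286), and so was Ctsb with -2.10 ± 0.668 (adjusted p = 0.0474). The other 5 did not pass: Cst3 1.43 ± 0.937 (adjusted p = 0.316), Ctss -1.45 ± 0.912 (0.297), Ctsh -0.89 ± 0.340 (0.0937), Ctsa -0.62 ± 0.400 (0.304) and Ctsz 0.58 ± 0.468 (0.418). The median log2 difference of the members was -0.02, and that of all genes tested was 0.32.

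These calls depended on the scaling and on the pairs included. TMM multiplied the size of the microglia libraries by 1.95 to 2.12 and of the macrophage libraries by 0.333 to 0.894, but by 0.432 and 1.36 in male WT PFF. With library totals alone, which keeps the scale of the shares, 6 members were higher (44.5% of all genes were) and 1 was lower (4.66% were), the median of all genes moved to 1.94, and Cst3 stood at 3.14 ± 0.235 (edgeR, adjusted p = 5.25e-13), Ctsz at 2.09 ± 0.300 (1.49e-06) and Ctsa at 0.81 ± 0.304 (0.0279). Relative to the median of all genes on each scale, Cst3 stood higher by 1.11 with TMM and by 1.21 with library totals, Ctsd by 1.68 and 1.63, Ctsf by 1.88 and 1.77 and Ctsl by 1.83 and 1.63. Ctsz stood higher than that median by only 0.26 and 0.15, so its difference between populations was close to that of the median gene. Ctsa, Ctsh and Ctss changed sign between the scalings, so no absolute direction is given for them. Relative to the same median they were lower on both scales, Ctsa at -0.95 and -1.13, Ctsh at -1.21 and -1.39 and Ctss at -1.77 and -1.61. Ctsb stood at -2.42 and -2.47 and Ctsc at -3.24 and -3.44. Without the male WT PFF pair, 9 of 10 members passed under TMM, 4 higher (17.9% of all genes were) and 5 lower (20.8% were), among them Cst3 at 0.95 ± 0.266 (adjusted p = 0.0140) and Ctss at -1.95 ± 0.307 (0.000333). Without any 1 of the other 6 pairs, 3 members passed, Ctsc, Ctsf and Ctsl, so the calls of Ctsb and Ctsd were lost each time.

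With the kind of library as a term and the male CD163KO MONO pair added, a fit chosen after seeing the data, 6 members were higher (18.6% of all genes were) and 1, Ctsc, was lower (11.6% were). In that fit of 8 pairs Cst3 stood at 3.71 ± 0.345 (edgeR, adjusted p = 2.92e-05), Ctsd at 3.27 ± 0.333 (5.46e-05), Ctsz at 1.61 ± 0.243 (0.000689) and Ctss at 1.303 ± 0.306 (0.00901), the last now higher in microglia. The term rests on 2 pairs, and in the other pairs the kind of library and the population cannot be told apart. Ctsd, Ctsf and Ctsl higher and Ctsc lower in microglia kept their direction in each of the 21 other fits that were run, as did Cst3 and Ctsz higher and Ctsb lower.

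**Figure D3:**
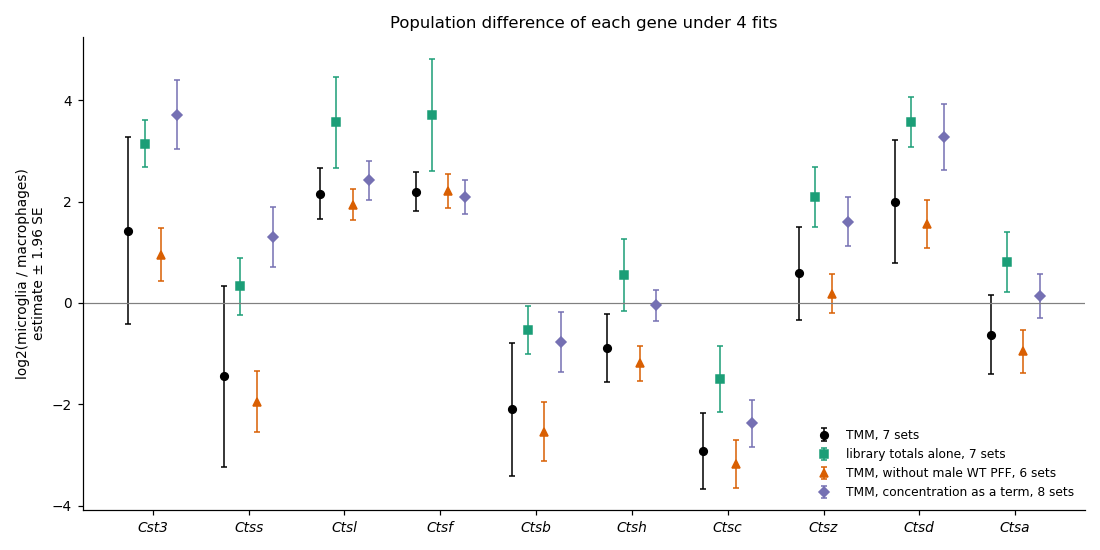
log2 ratio of microglia to macrophages for each of the 10 genes (points, with bars for the normal 95% interval) under 4 edgeR fits. Ctsd, Ctsf, Ctsl and Ctsc keep clear of 0 in all 4, whereas Ctss lies below 0 in both TMM fits without the added term and above it in the others.

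Genes that act beside the members gave a background to these values. Of 12 other lysosomal peptidases, all tested, 1 was higher and 4 were lower in microglia under TMM (median log2 difference -1.10). Of these 12, 11 passed the count filter in the macrophage fits and 7 in the microglia fits. Of 12 further cathepsin inhibitors, 8 were tested, and 6 of these were lower and none higher (median -3.97). Of the 12, 8 passed the count filter in the macrophage fits and only 4 in the microglia fits. In both lists, a gene that passed through macrophages alone could hardly be other than lower, so these counts support no direction. Of 13 genes for sorting and activation of cathepsins, 2 were higher and 2 lower (median 0.17). Over all genes 7.4% were higher and 12.6% lower. With library totals alone these counts were 4 higher and 2 lower, 0 and 5, and 7 and 2, where 44.5% of all genes were higher and 4.66% lower.

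The lowest adjusted p-values in these lists belonged to 4 genes. Napsa, an aspartic protease of the lysosome, measured 37.7 to 279 FPKM in macrophages and 0 to 1.61 FPKM in microglia. Ctsg, a granule protease of neutrophils, measured 4.28 to 181 FPKM in macrophages and 0 to 7.27 FPKM in microglia, with a median of 0. Serpinb6a and Serpinb1a, intracellular serpins, the latter an inhibitor of neutrophil granule proteases, measured 9.99 to 76.8 and 4.41 to 82.6 FPKM in macrophages and 1.48 to 9.02 and 0.09 to 6.48 FPKM in microglia. All 4 were lower in microglia with an adjusted p of at most 6.15e-05 (edgeR, TMM). Napsa and Ctsg, with microglia medians of 0.08 and 0 FPKM, passed the count filter mainly through macrophages, so their direction was largely set by it. With library totals alone Serpinb6a moved from -3.42 to -1.87 on the log2 scale (adjusted p = 0.0407) and Serpinb1a from -4.17 to -2.63 (adjusted p = 0.00758). Neutrophil markers stood far above microglia in the macrophage gate, as given above, and their part in these differences was not tested.

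Within each population the question was whether α-syn PFF, the loss of CD163 or sex moved the members. In macrophages PFF called 0 of 10 members against MONO (0% of 11067 genes were called by edgeR, 125 had an unadjusted p under 0.05), and in microglia 0 of 10 (0% of 11737 genes, 737 with an unadjusted p under 0.05). DESeq2 called no member either, and limma called 1, Cst3 in microglia, only with 5 added to the FPKM. The design has 7 libraries and 3 residual degrees of freedom in each of these fits.

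In microglia all 10 members had a positive fitted difference of PFF against MONO, from 0.28 to 1.51 on the log2 scale with a median of 1.04 against 0.12 for all genes tested, but with standard errors of 0.332 to 2.37. This held with TMM and not on every scale: with library totals alone Ctsc stood at -0.11, Ctsf at -0.21 and Ctsl at -0.19, and each of these 3 changed sign in 4 of 18 alternatives. Ctsd had the highest, 1.51 ± 1.28 (edgeR, adjusted p = 0.822), and Cst3 stood at 1.25 ± 2.37 (0.939) and Ctss at 1.15 ± 1.73 (0.923). In this fit TMM multiplied the size of the male WT PFF library by 0.259 and of the other microglia libraries by 1.23 to 1.31. Without the concentrated male WT PFF library the values of Cst3 and Ctss fell to near 0, and that of Ctsd stayed positive. They were 0.84 ± 0.248 (0.630) for Ctsd, 0.20 ± 0.158 (0.780) for Cst3 and -0.02 ± 0.185 (0.987) for Ctss. The limma value of Cst3 was 0.64 ± 0.124 on the log2(FPKM + 5) scale (adjusted p = 0.00302), and 0.53 ± 0.124 for males against females (adjusted p = 0.0407), in fits that hold the same library.

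The levels behind these values show which members separated by treatment. In the 6 even microglia libraries, 4 of 10 members had every PFF library above every MONO library, against 7.33% of genes tested. They were Cst3 (60306 to 62251 FPKM after MONO and 66460 to 73243 after PFF), Ctsb (809, 966 and 1049, then 1241, 1291 and 1294), Ctsz (1541, 2121 and 2358, then 2650, 2874 and 2923) and Ctsa (547, 692 and 755, then 779, 892 and 892). Over all 8 microglia libraries, the concentrated ones included, this held for Ctsb and Ctsz, 2 of 10 members, against 0.332% of genes tested. For Ctsb the concentrated MONO and PFF libraries measured 882 and 1255 FPKM, and for Ctsz 2159 and 2781 FPKM.

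None of the 10 members had every PFF library below every MONO library in microglia, against 8.23% of genes in the 6 even and 0.571% in all 8 libraries. Ctsd did not separate, with 4124, 5120 and 8124 FPKM in even MONO libraries and 7497, 9425 and 9807 FPKM in even PFF libraries. Ctss overlapped, with 7210, 8113 and 8891 FPKM after MONO and 7865, 7874 and 8276 after PFF. Depth differed in the same comparison: the WT MONO microglia libraries of both sexes held 8648751 and 8716300 counts, and the even PFF libraries 16110256 to 17124485, while the female CD163KO MONO library, which also carries Y-linked counts and had the lowest Cst3, Ctsa, Ctsb, Ctsd and Ctsz of the 6, held 16315687. Their part in the separation was not tested. Among the even libraries PFF also held more CD163KO and MONO more WT, so treatment and genotype were not balanced there.

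**Figure D4:**
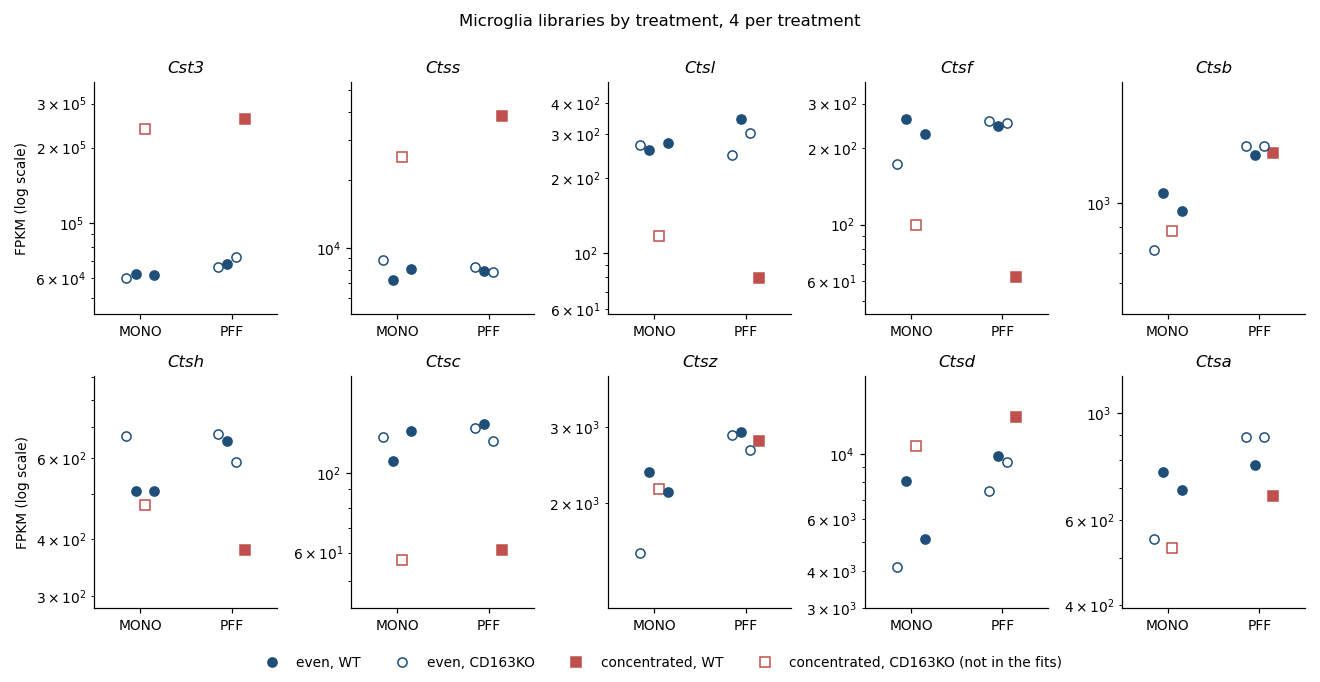
FPKM (log axis, a separate range in each panel) of the 10 genes in 8 microglia libraries by injected α-syn, circles for even and squares for concentrated libraries, filled for WT and open for CD163KO. Ctsb and Ctsz lie higher after PFF with no overlap in all 8 libraries, as 0.332% of genes tested do. Cst3 and Ctsa do so only among the 6 even libraries, as 7.33% of genes tested do.

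In macrophages no member separated by treatment. Of all genes tested, 0.596% had every PFF library higher and 12.5% had every PFF library lower in the 6 concentrated libraries, and 0.0633% and 3.93% in all 8. Ctsb measured 1210, 2111 and 1025 FPKM after MONO and 2862, 2228 and 1446 after PFF in the concentrated libraries, and 1434 (MONO) and 1166 (PFF) in the even ones. Cst3 measured 9452, 10720 and 11289 FPKM after MONO and 6657, 9555 and 7868 after PFF in the concentrated libraries, with 1 PFF value inside the MONO range. The fitted difference of Cst3 was 0.07 ± 0.786 with TMM (edgeR, adjusted p = 1.00) and -0.38 with library totals alone, so it had no stable sign.

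The difference between the populations in their response to PFF was tested as an interaction and called 0 of 10 members (0.0078% of 12819 genes, 1 gene, and 234 with an unadjusted p under 0.05). For Cst3 the PFF difference in microglia minus that in macrophages was 1.21 ± 1.85 on the log2 scale (edgeR, adjusted p = 1.00), and -0.94 without male WT PFF and female CD163KO MONO.

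The loss of CD163 called 0 of 10 members in macrophages (0.00904% of 11067 genes, 1 gene, and 76 with an unadjusted p under 0.05) and 0 of 10 in microglia (0% of 11737 genes, 141 with an unadjusted p under 0.05). In macrophages Cst3 stood at 0.15 ± 0.784 on the log2 scale (edgeR, adjusted p = 1.00), and in microglia at -1.03 ± 2.35 (adjusted p = 1.00). Neither sign was stable: with library totals alone the macrophage value was -0.22, and without male WT PFF the microglia value was 0.0335. In the 6 concentrated macrophage libraries Cst3 was below every WT library in every CD163KO library, with 6657, 7868 and 9452 FPKM in CD163KO and 9555, 10720 and 11289 in WT. Ctsz did the same, with 378, 523 and 569 FPKM in CD163KO and 623, 658 and 662 in WT. These were 2 of 10 members, against 3.82% of genes tested. Here CD163KO held more PFF and WT more MONO libraries, so genotype and treatment cannot be fully told apart. In the same libraries, listed as female MONO, female PFF and male PFF for CD163KO and as female MONO, female PFF and male MONO for WT, 3 endothelial markers summed to 3.89, 18.8 and 4.24 FPKM in CD163KO and to 30.8, 103.6 and 35.4 FPKM in WT, also without overlap. The 6 choroid plexus markers summed to 161, 4372 and 103 FPKM in CD163KO and to 12620, 2182 and 2816 FPKM in WT, with overlap. The part of these cells in the separation was not tested. With the 2 even macrophage libraries included, no member separated (0.163% of genes were higher and 0.443% lower in every CD163KO library), since Cst3 was 6894 FPKM in male WT PFF and Ctsz 898 FPKM in male CD163KO MONO. No member separated by genotype in microglia, where 3.52% of genes were higher and 4.34% lower in every CD163KO library among the 6 even libraries, and 0.409% and 0.0767% among all 8.

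Sex called 0 of 10 members in macrophages and 0 of 10 in microglia (0% of 11067 and of 11737 genes, 150 and 193 of them with an unadjusted p under 0.05). Cst3 stood at -0.66 ± 0.793 in males against females in macrophages and at 1.67 ± 2.86 in microglia (edgeR, adjusted p = 1.00 for both). Without male WT PFF the microglia value was 0.0748, without female WT PFF 0.0813, and without male WT PFF and female CD163KO MONO 0.0892. It rose to 2.694 without male CD163KO PFF, to 2.696 without male WT MONO and to 2.858 with male CD163KO MONO included. The macrophage value turned to 0.279 without female WT PFF and to 0.28 without male WT PFF and female CD163KO MONO. The interaction of genotype with population called 0 of 10 members (0% of 12819 genes, 167 with an unadjusted p under 0.05), with Cst3 at -1.18 ± 1.84 (adjusted p = 1.00), and at 1.16 without male WT PFF and female CD163KO MONO.

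The members varied unequally among libraries of 1 kind. Over the 6 even microglia libraries, Ctss varied least, with a coefficient of variation of 6.89%, followed by Cst3 with 7.44% and Ctsc with 8.13%. Ctsl, Ctsh, Ctsf, Ctsa and Ctsb lay between 12.5% and 18.0%, Ctsz at 21.8%, and Ctsd varied most with 31.2%. Over the 6 concentrated macrophage libraries the values ran from 16.5% for Ctsh to 42.4% for Ctsd, with Ctss at 17.2% and Cst3 at 18.8%.

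Genes whose pattern was most like that of a member were sought with Pearson's r of log2(FPKM + 1), centred within each population, over 16 libraries that share the 2 turned-around pairs, among 4513 genes with a mean of at least 10 FPKM. For Cst3 they were Spc24 (r = 0.901), Nol10 (0.899), Rab33b (0.898), Washc4 (0.887) and Golm2 (0.880). Without the 4 libraries of male WT PFF and male CD163KO MONO these r were -0.0767, -0.115, -0.379, -0.379 and -0.403 (n = 12), so the likeness lay in those libraries. Closest to the cathepsins were Trf for Ctsa (0.884), Apoe for Ctsb (0.676), C3ar1 for Ctsc (0.941), Laptm5 for Ctsd (0.781) and for Ctsz (0.849), Pttg1ip for Ctsf (0.981), Rps26 for Ctsh (0.942), Ergic3 for Ctsl (0.960) and Mfsd4a for Ctss (0.958). Without the same 4 libraries these r lay between 0.600, for Ctss, and 0.958, for Ctsd with Laptm5, which encodes a protein of the lysosomal membrane.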

How the data were processed

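RNA of sorted brain macrophages and microglia was sequenced with SMART-seq2. The authors aligned reads with Bowtie2 and quantified them with RSEM, and the processing notes name mm10 and DESeq2, with versions not given in the sources used here. They deposited, per library and RefSeq transcript, expected counts, which divide reads shared between transcripts, and FPKM, which the authors scaled to transcript length and library size. Batches were not given per sample.

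Transcripts were summed per gene symbol (27627 of 27787 had one, and those without held at most 0.142% of counts), with unlisted transcripts as 0. Summed expected counts were rounded and tested with edgeR 4.0.16 (TMM, quasi-likelihood, Benjamini-Hochberg) for genes with at least 10 counts in 3 libraries. The population fit held the matched set as a factor, and fits within a population were additive in treatment, genotype and sex. Scripts were tested on simulated counts drawn from a single shared mean profile with some genes changed. That profile lacks the concentration of counts seen here, so the fits were not tested under it. Alternatives were library totals alone, DESeq2 1.42.0, limma 3.58.1 on log2(FPKM + 0.1, 1 or 5), no filter, the excluded pair included and each library or pair left out.

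Members and gene lists were chosen with earlier results of these data known. Genes of the lists were named by the lowest adjusted p of the population fit, and genes like a member by the highest r. Ctsa, Ctsb, Ctsc, Ctsh, Ctsl and Ctss held counts that were not whole, which RSEM split with other transcripts. Each condition had 1 library per population, so precision rests on the spread across conditions.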

Additional observations from a re-analysis of the deposited data

Results flagged for a closer look

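Of 20 sets of 7 libraries, 1 for each gene and population, 5 held a library whose gap to its nearest neighbour exceeded Dixon's 95% critical value of 0.568, where chance gives about 1 in 20. All 5 were male WT PFF libraries. In microglia Cst3 stood at 261200 FPKM (next 73240, gap 0.936 of the range) and Ctss at 38360 FPKM (next 8891, gap 0.946), both highest, while Ctsl stood at 79.92 FPKM (next 247.8, gap 0.631) and Ctsc at 60.87 FPKM (next 108.1, gap 0.621), both lowest. In macrophages Ctsf was highest with 45.81 FPKM (next 20.85, gap 0.653). In this pair the concentrated library was the microglia one, as given above, and the part of this in the 5 values was not tested.

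The male CD163KO MONO microglia library, which was left out of the main fits, gave Cst3 18.32% of its counts, above the highest of the other MONO microglia libraries at 4.676%.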

How the results depend on the processing

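Between populations, 5 members were called, and 3 to 9 when 1 pair was left out (9 without male WT PFF). Without male WT PFF and female CD163KO MONO 9 were called, and the difference in Cst3 share was 4.312 points, no longer past 0.05 since 5 pairs cannot go below 0.0625. Ctsa turned to 0.8084 with library totals alone, 0.805, 0.8065 and 0.7988 with limma on log2(FPKM + 1, 0.1 and 5), and 0.3552, 0.1368 and 0.4296 with concentration as a term in 7 pairs, in 8 pairs, and in 8 pairs on library totals. Ctsh turned to 0.5439 with totals, 0.5414, 0.5424 and 0.5367 with limma, and 0.0233 (7 pairs) and 0.2443 (8 pairs on totals) with the term. Ctss turned to 0.3287 with totals, 0.4318, 0.4318 and 0.4316 with limma, and 1.508, 1.303 and 1.599 with the term. Within populations no member was called, except Cst3 with limma on log2(FPKM + 5), 1 member for PFF and 1 for sex in microglia. Cst3 changed sign in macrophages for PFF (-0.3825 with totals, -0.4089, -0.4089 and -0.4087 with limma, and -1.126 to 0.3386 with 1 library left out) and for CD163KO (-0.2222 with totals, -0.1951, -0.1951 and -0.195 with limma, -0.09752 with male CD163KO MONO, -0.1296 with that library and the term, -1.189 without both doubtful sets, and -0.6579 to 1.16 with 1 library left out). Without both doubtful sets Cst3 was also reversed for sex in macrophages (0.2797), CD163KO in microglia (0.004206) and the differences between populations in PFF (-0.9408) and CD163KO (1.16). With 1 library left out, Cst3 ran from -1.498 to 0.2787 for sex in macrophages and from -2.586 to 0.0335 for CD163KO in microglia, and Ctss from -0.0202 to 3.03 for PFF in microglia. The cause of these changes was not tested. Single libraries per condition and 3 residual degrees of freedom limit the comparisons within a population.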

Other observations

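Lgmn and Cd74, chosen after their values were seen, act beside the cysteine cathepsins. Lgmn, the lysosomal asparagine endopeptidase that processes cathepsins, measured 1277 to 3021 FPKM in macrophages and 4165 to 19300 FPKM in microglia. It was thus higher in microglia with no overlap, as 4.56% of genes were, but its TMM difference was -0.20 on the log2 scale, so its direction depended on the scaling. Cd74, the invariant chain trimmed by cathepsin S, measured 19370 to 112600 FPKM in macrophages and 79.5 to 661 FPKM in microglia, as 2.26% of genes lie lower with no overlap, while Ctss itself overlapped between the populations.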
